A study of Lachancea waltii with 4 samples.

Results

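Genes with a high genomic DNA signal were examined in Kluyveromyces waltii, a budding yeast now placed in the genus Lachancea, on custom two-colour Agilent arrays with probes of 55 bases. A gene was taken as a member if both of its probes lay above 1 on the log2 scale, more than 2-fold over the median probe, in the mean genomic DNA signal of 4 arrays. No probe of a member was identical in sequence to a probe of another gene, and its identifier prefix, the text before the dot, was held by more than 12 genes on the array. Of 5193 genes, 95 (1.83%) met the rule. The members were thus chosen by their genomic DNA signal, and their genomic values are given as a description and carry no test.

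The samples formed 1 group of 4 arrays, numbered as in the labels. On each array total RNA of strain NCYC 2644, taken in mid-log phase from rich medium, was labelled with Cy3 and set against Cy5-labelled genomic DNA of K. waltii. There was no second strain, treatment or time, so every comparison is between genes of these cells. The methods call the arrays biological replicates, but the labels do not say that the cultures were separate, and p-values measure only the spread between these 4 arrays, which lay on 1 slide.

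Genomic DNA serves as a reference on such arrays because a gene present once in a haploid genome offers the same number of target molecules as any other single gene. A sequence present in several copies binds more labelled DNA, and so does a probe that tolerates related sequences. Yeast genomes hold such repeats in the ribosomal DNA, in retrotransposons and in gene families near chromosome ends, and preparations of genomic DNA also carry mitochondrial DNA and plasmids. No gene names or positions come with the identifiers in these files, and members are given by identifier only. Identifiers are numbered within a prefix, and "neighbouring" below means next in number among the genes on the array.

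The median genomic DNA signal of gene probes was 7917 to 9640 units per array after background subtraction, and the median RNA signal 1191 to 1713.5 units. Negative control spots read at most 15.5 units in the genomic and 37 units in the RNA channel, 0 spots were saturated, and the scanner software marked 35 to 101 gene probes as outliers on each array. RNA was well above background on every array for 94 of the 95 members, and all 95 received an RNA value. The number of arrays limits the precision of each value.

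The members had a median genomic DNA signal of 1.74, or 3.34-fold over the median probe, with a range of 1.07 to 4.19. The other 5098 genes had a median of -0.01. The signal of members was repeatable, with a median SD over the 4 arrays of 0.083, against 0.058 over all genes. Both probes passed the threshold on each array taken alone in 77 of the 95 members. A single array in place of the mean would have chosen 100 genes (arrays 1 and 2), 87 (array 3) or 98 (array 4). Both probes lay above 1 in 199 genes in all, of which 104 were set aside, 49 because a probe was identical to one of another gene and 82 because the prefix was small, some for both reasons.

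The threshold did not fall in a gap of the values. Just inside it stood Kwal_26.7187, with probes at 1.004 and 1.72, Kwal_27.10286, at 1.01 and 1.28, and Kwal_47.18291, at 1.02 and 1.32. Just outside it stood Kwal_33.14817, at 0.97 and 1.80, Kwal_56.22743, at 0.97 and 1.21, and Kwal_47.17211, at 0.99 and 1.30.

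The RNA signal of the same genes, which the rule did not use, spread over nearly the whole range of the array. It is given as log2 of the Cy3 signal relative to the median gene. RNA signal alone is not corrected for how well a probe hybridises, and each value comes from the same spots as the genomic signal. The median RNA signal was 1.89 in members, with a range of -4.45 to 7.86, and -0.02 in the other genes. With limma's two-sided test against a 2-fold difference from the median gene, 60 members lay above it, where 23.6% of all tested genes did. Another 8 members lay below the median gene, where 19.5% of all tested genes did, and 27 passed in neither direction. The count above the median gene rested in part on bright RNA spots. Once the part of the genomic signal related to RNA was removed (described below), 67 members stayed above the threshold. Of these 67, 32 exceeded the median gene in RNA signal by the test and 8 fell short of it. The shares of all tested genes in the same test were 23.6% and 19.5%. With the processed signal of the scanner software the median of members was lower, at 0.67, and 42 members passed above the median gene, where 17.8% of all tested genes did.

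**Figure D1:**
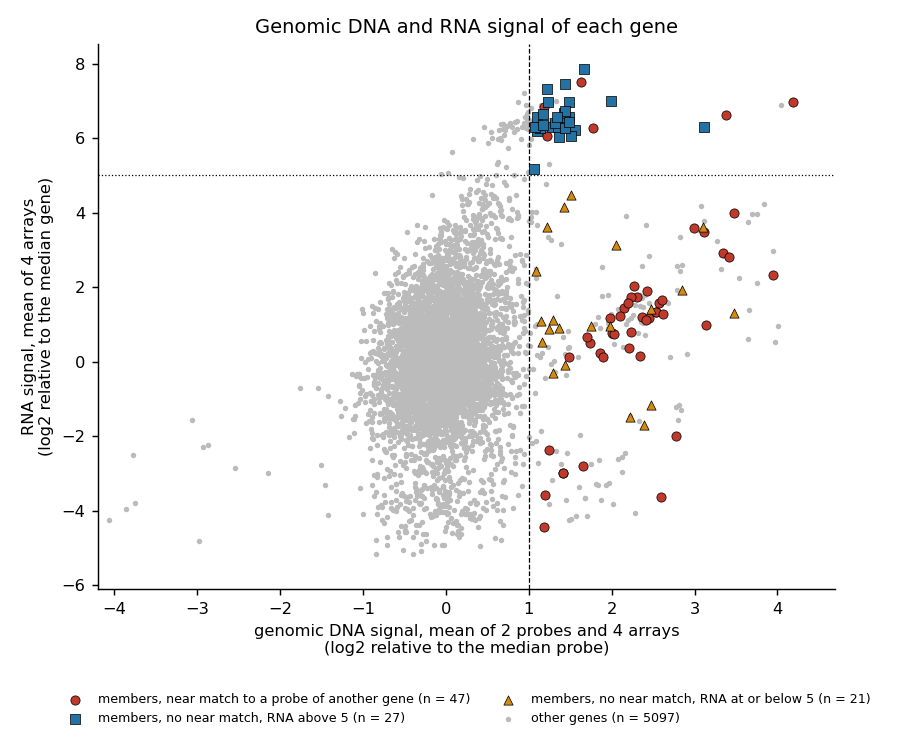
Genomic DNA signal (x axis, log2 relative to the median probe) against RNA signal (y axis, log2 relative to the median gene), each point 1 gene and the mean of 4 arrays. The 95 members (coloured) lie right of the dashed line at 1 and split into a band above the dotted line at 5 in RNA signal and a wide scatter below it, and 3 other genes lie left of the plotted range.

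The members fell into 3 sets by what else could be measured for them. A near match was defined as an exact stretch of at least 20 bases, on either strand, that a probe shares with a probe of another gene. It was found in 47 members (49.5%), against 157 of the other genes (3.08%). The members without one were divided at an RNA signal of 5 (32-fold), with 27 above it and 21 at or below it. No member lay between 4.47 and 5.18, but a wider interval without members ran from 5.18 to 6.04. The sets were drawn after the values were seen and were not tested against each other.

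The 47 members with a near match had the highest genomic DNA signal of the 3 sets, with a median of 2.24, against 1.36 in the members with RNA above 5 and 1.51 in the remaining 21. Their RNA signal had a median of 1.22 and a range of -4.45 to 7.50. By the limma test 25 of them lay above the median gene, where 23.6% of all tested genes did. Another 8 lay below it, close to the 19.5% of all tested genes that did, and 14 lay in neither class. The longest stretch shared with another gene had a median of 38 bases, from 20 to 53, and ran on the same strand in 42 members and on the opposite strand in 5. Of the 47, 29 shared a stretch with another member.

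A near match did not go with a high genomic signal in every gene. On the same large prefixes, 40 genes without an identical probe had a near match and were not members, which under the rule leaves at least 1 of their probes at or below 1. Their median genomic signal was 0.18. In the 15 members in which 1 probe had a near match and the other had none, the matching probe was the higher one in 8, with a median difference of 0.06 on the log2 scale. In the other 48 genes of this kind it was higher in 26, with a median difference of 0.16. Single differences among the 15 members ran from -1.40 to 1.29, and the rule had required both probes of a member above 1. Members matched to 1 other gene had a median genomic signal of 1.89 (19 members), those matched to 2 or 3 genes 2.34 (14 members), and those matched to 4 or more 2.32 (14 members).

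Genes joined by near matches formed 25 families that held at least 1 member. In several of them the genes gave nearly one value in both channels, with identifiers on different prefixes. The families were built from shared probe stretches, and their members had passed the same genomic threshold. Like values within a family are thus a description and not separate evidence. The family of Kwal_14.764, Kwal_34.16307, Kwal_47.19344 and Kwal_55.19799, with 2 further genes, lay on 6 prefixes. Its genomic signals were 2.26 to 2.57 and its RNA signals 1.12 to 1.59. The family of Kwal_26.7403, Kwal_34.16304 and Kwal_47.19342, with 1 further gene, lay on 4 prefixes at 2.15 to 2.36 in genomic signal and 1.45 to 1.73 in RNA signal. Other families were wide. That of Kwal_23.3709, with 9 genes, ran from -0.12 to 2.54 in genomic and from -1.87 to 1.33 in RNA signal. Kwal_14.1060, at 1.18 in genomic signal, was joined to the neighbouring Kwal_14.1059, at -3.78, by 32 bases on the opposite strand.

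Kwal_14.764 was among the members with the longest stretch shared with another gene, 52 bases. Its genomic signal was 2.53, 2.82, 2.44 and 2.47 on arrays 1 to 4. Its RNA signal was 1.36, 1.75, 1.65 and 1.59, or 1.59 ± 0.16 (SD, n = 4), and lay above the median gene (limma, adjusted p = 6.53e-05). Every array placed it above the median gene in both channels. Kwal_33.15087, with a shared stretch of 53 bases, stood at 2.27 ± 0.07 in genomic and 2.04 ± 0.11 in RNA signal (SD, n = 4). Its RNA exceeded that of the median gene 4.12-fold (limma, adjusted p = 2.82e-07). With the processed signal of the scanner software neither gene passed the test, at 0.50 for Kwal_14.764 and 0.92 for Kwal_33.15087.

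A family of 9 genes on 9 prefixes had low RNA throughout. It held the members Kwal_14.699, Kwal_34.15670 and Kwal_55.22265. Its RNA signals ranged from -3.72 to -2.79, while its genomic signals ranged from 1.19 to 2.59. Of its 6 other genes, 5 had a probe identical to one of another gene, so that the values are not 9 separate readings. All 9 genes lay within 5 genes of an end of their prefix in identifier order, 3 of them on small prefixes, where an end is never far. Kwal_55.22265 read 2.61, 2.79, 2.48 and 2.49 in genomic signal on arrays 1 to 4 and -3.76, -3.13, -3.76 and -3.87 in RNA signal. Its RNA lay 12.4-fold below the median gene (limma, adjusted p = 1.29e-08), and array 2 was the highest in both channels. Kwal_34.15670 lay 11.9-fold below (limma, adjusted p = 9.55e-09) with a genomic signal of 1.19 ± 0.05 (SD, n = 4).

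The other members with little RNA included a pair from opposite ends of 1 prefix. Kwal_26.6639 is the first gene of its prefix on the array and Kwal_26.9628 lies close to the last, and they shared a stretch of 40 bases. Their genomic signals were 1.41 ± 0.02 and 1.41 ± 0.04 (SD, n = 4) and their RNA signals -2.98 ± 0.05 and -2.98 ± 0.17 (SD, n = 4), so that the pair did not differ beyond the spread between arrays in either channel. The lowest RNA signal of all members, -4.45 ± 0.19 (SD, n = 4), was listed for Kwal_56.22698 (limma, adjusted p = 6.73e-10). It was the only member whose RNA was not well above background throughout, with 3 of its 8 spots on 2 of the 4 arrays falling short, so that the size of the value is not reliable. Its match to another gene was the shortest that counted, 20 bases.

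**Figure D2:**
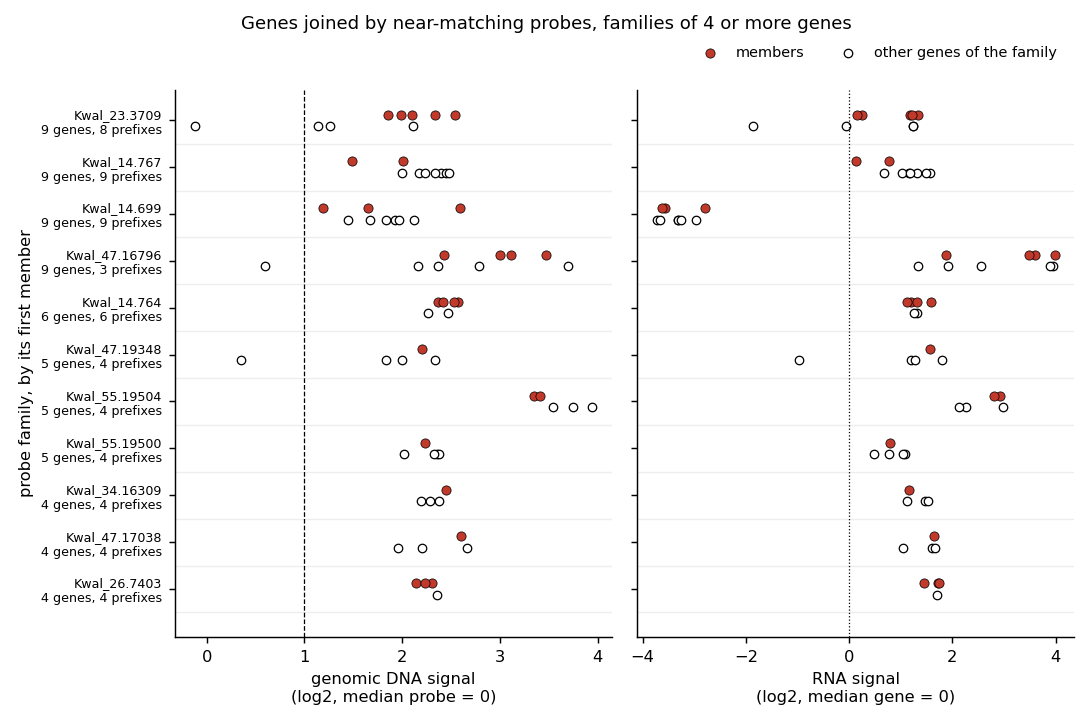
Genomic DNA signal (left, log2 relative to the median probe) and RNA signal (right, log2 relative to the median gene) of the families of 4 or more genes joined by near-matching probes, with members as filled and other genes as open points, each the mean of 4 arrays. Several families are tight in both channels, such as that of Kwal_26.7403 at 2.15 to 2.36 in genomic signal, while the family of Kwal_14.699 lies at -3.72 to -2.79 in RNA signal.

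At the top of the genomic range stood Kwal_47.16825. Its genomic signal was 4.09, 4.38, 4.01 and 4.29 on arrays 1 to 4, a mean of 18.3-fold over the median probe. Its RNA signal was 7.10, 6.88, 7.10 and 6.82, or 126-fold over the median gene (limma, adjusted p = 8.39e-12). Its family, with the member Kwal_55.22201 and 1 gene on a small prefix, was high throughout, at 3.38 to 4.19 in genomic and 6.62 to 6.98 in RNA signal. The next member, Kwal_56.22277, reached 3.95, 4.23, 3.79 and 3.81 in genomic signal but only 2.34 ± 0.42 (SD, n = 4) in RNA signal, 5.06-fold over the median gene (limma, adjusted p = 1.45e-05). Array 2 was the highest of the 4 for Kwal_56.22277 in both channels. With processed signals the RNA of Kwal_56.22277 stood at 0.67 and did not pass the test.

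The highest genomic signal without a near match was that of Kwal_23.5441, at 3.58, 3.42, 3.52 and 3.41, or 11.2-fold over the median probe. Its RNA signal was 1.89 and 1.63 on arrays 1 and 3 but 0.83 and 0.85 on arrays 2 and 4. The mean, 1.30 ± 0.54 (SD, n = 4), did not pass the test (limma, adjusted p = 0.122). Without array 2 the level was 1.45 and passed it. Without array 4 the level was also 1.45 but did not pass, and it did not pass without array 1 or 3 either. With processed signals the RNA of Kwal_23.5441 stood at 0.00785 and did not pass the test.

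The 27 members with RNA above 5 and no near match were set apart by their RNA signal itself, so that no test of it is given. Their genomic signals lay in the lower range of members, from 1.07 to 3.11 with all but 2 at or below 1.67, and their RNA signals ranged from 5.18 to 7.86 with a median of 6.43. In 16 of them the 2 probes overlapped end to end by at least 50 of their 55 bases and were nearly the same sequence. Over all members such overlap occurred in 31 (32.6%), against 12.4% of the other genes. It was as frequent in genes with RNA above 5 that were not members, 36 of 61 (59.0%), as in these 27 members (59.3%), and 42.3% of the genes that share an identical probe had it.

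The highest RNA signal of any member was that of Kwal_56.23626, at 7.94, 7.71, 7.97 and 7.84 on arrays 1 to 4. Its RNA was 233-fold over the median gene. Its genomic signal was 1.71, 1.66, 1.64 and 1.66, and its probes had a GC content of 54.5%. All 4 arrays were close in both channels. Kwal_33.15428 followed at 7.50 ± 0.17 in RNA and 1.63 ± 0.11 in genomic signal (SD, n = 4), then Kwal_23.3932 at 7.46 ± 0.13 and 1.44 ± 0.09, and Kwal_33.15540 at 7.33 ± 0.12 and 1.22 ± 0.11. Kwal_33.15540 lay below Kwal_33.15428 and Kwal_23.3932 in RNA signal on each of the 4 arrays. The order of Kwal_33.15428 and Kwal_23.3932 changed between arrays, and these differences were not tested.

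Kwal_27.12798 followed in RNA signal at 6.99 ± 0.19 (SD, n = 4), with Kwal_23.5481, Kwal_47.16825 and Kwal_14.1302 all at 6.98 and no order among the 4 beyond their spread. It had the widest gap between its probes of all members. They stood at 1.24 and 2.75 in genomic signal, so that its mean of 1.997 describes neither. Kwal_23.3430 and Kwal_23.4783, which shared a stretch of 53 bases with each other, had similar RNA signals of 6.07 ± 0.11 and 6.28 ± 0.05 (SD, n = 4), while their genomic signals were 1.22 ± 0.05 and 1.77 ± 0.10.

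The genomic signal of bright spots moved with their RNA signal. Of all genes, 94 had an RNA signal above 5, and 93 of them had a genomic signal above 0. Members made up 33 of the 94 (35.1%). Over probes with more than 10000 units of RNA signal, the genomic signal rose by 0.0740 ± 0.0019 units per unit of RNA signal (SD over 4 arrays). With this part subtracted from the genomic channel, 67 of the 95 members stayed above the threshold. These were 44 of the 47 with a near match, 2 of the 27 with RNA above 5 and no near match, and 21 of the other 21. Of all 33 members with RNA above 5, 5 stayed. The part subtracted grows with RNA signal, and the members without a near match were divided by RNA signal. The contrast between those sets is thus built into the subtraction, and these counts are a description only. What the relation between genomic and RNA signal comes from was not tested.

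Members lay close to one another. Of the 95, 34 stood next to another member, in 15 runs of 2 or 3, and in 10 of the runs every gene had a near match to some other gene. Members also lay near the ends of prefixes, where 20 (21.1%) were among the 5 first or 5 last genes of a large prefix, against 80 of the other genes (1.57%). Genes that share an identical probe lay there at a like share, 16 of 78 (20.5%). Of the 20 members, 16 had a near match. The neighbouring members had a median genomic signal of 2.42 and a median RNA signal of 1.62. The 10 large prefixes held between 0 members, on Kwal_0 with 83 genes, and 17 members, on Kwal_47 with 593.

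**Figure D3:**
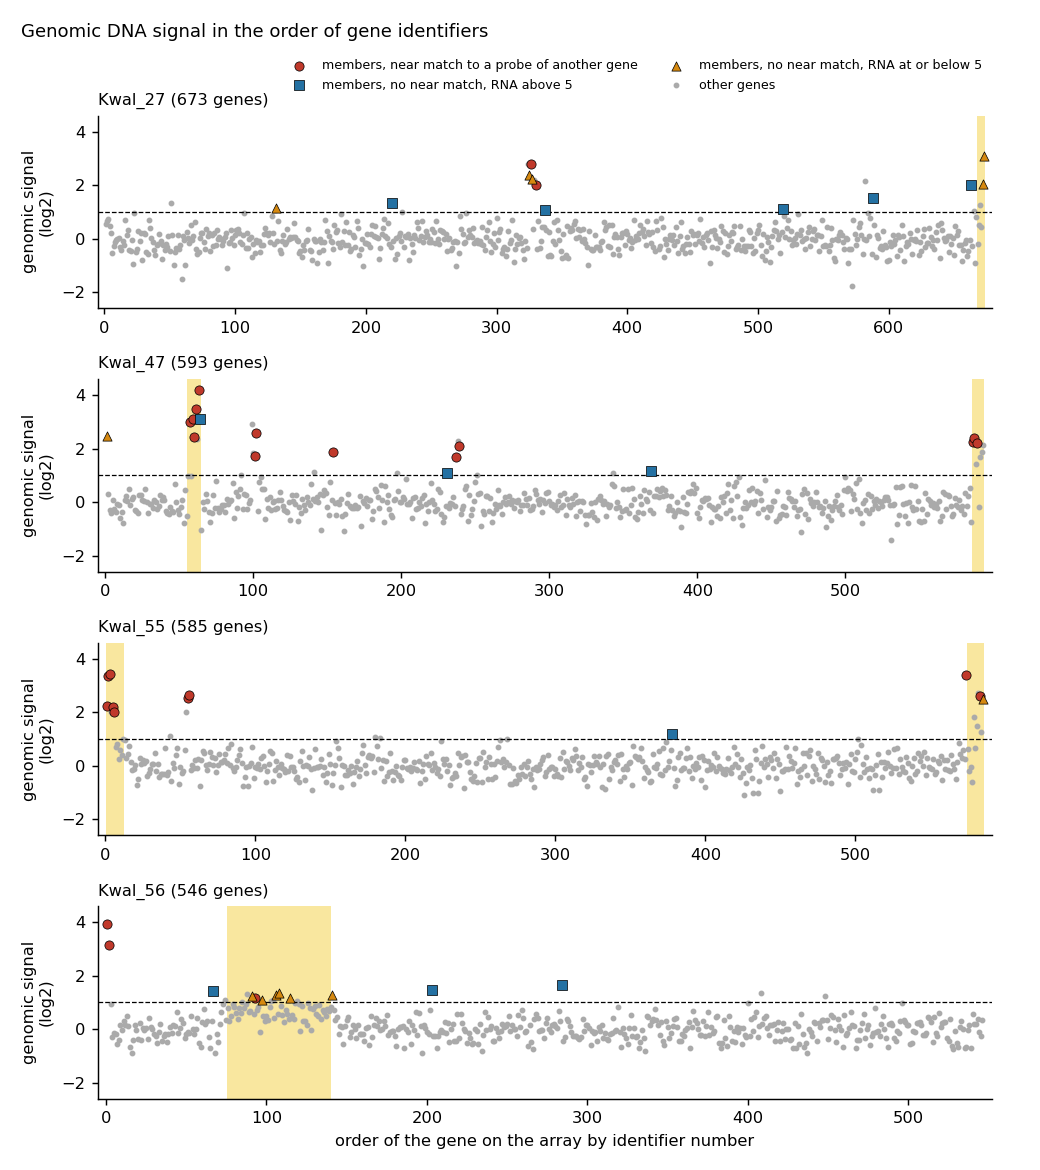
Genomic DNA signal (y axis, log2 relative to the median probe) of the genes of 4 prefixes in the order of their identifiers (x axis), with members coloured by set, other genes grey and shading where the running median of 15 genes exceeded 0.5. Members crowd at both ends of Kwal_55, at the last genes of Kwal_27 and Kwal_47 and in 1 block of Kwal_47, while most of the members with RNA above 5 stand alone, other than Kwal_47.16825 and Kwal_47.16834 side by side.

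The densest block lay on Kwal_47, where 9 genes from Kwal_47.16790 to Kwal_47.16834 had a median genomic signal of 2.997, or 7.98-fold over the median probe, and 6 of them were members. Their median RNA signal was 3.48. The run inside it consisted of Kwal_47.16805, Kwal_47.16808 and Kwal_47.16813. Kwal_47.16813 read 3.34, 3.82, 3.41 and 3.31 in genomic signal and 3.75, 4.44, 4.20 and 3.53 in RNA signal, 15.8-fold over the median gene (limma, adjusted p = 4.61e-08). Kwal_47.16805 was 11.2-fold over it (limma, adjusted p = 1.41e-09) with a genomic signal of 3.12 ± 0.25 (SD, n = 4). Kwal_47.16808 had the largest SD of genomic signal of all members, 0.34, because array 2 read 2.91 where the others read 2.18 to 2.41. Its RNA was 3.70-fold over the median gene (limma, adjusted p = 0.000473). With processed signals the RNA of Kwal_47.16808 stood at 0.77 and did not pass the test.

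The run at the start of Kwal_55 was made of its first 3 genes. Kwal_55.19504 and Kwal_55.19506 had genomic signals of 3.35 ± 0.25 and 3.41 ± 0.08 and RNA signals of 2.93 ± 0.48 and 2.80 ± 0.44 (SD, n = 4), both above the median gene (limma, adjusted p = 2.89e-06 and 2.67e-06). Kwal_55.19500 was lower in both channels, at 2.23 ± 0.09 and 0.79 ± 0.60 (SD, n = 4), and its RNA did not pass the test (limma, adjusted p = 1). Array 1 gave the lowest RNA signal for all 3 genes. With processed signals none of the 3 passed the test, with Kwal_55.19504 at 1.27 and Kwal_55.19506 at 1.18.

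The last 3 genes of Kwal_34 formed a run of even values. Kwal_34.16304, Kwal_34.16307 and Kwal_34.16309 had genomic signals of 2.30 ± 0.06, 2.36 ± 0.09 and 2.45 ± 0.05 (SD, n = 4). Their RNA signals were 1.73 ± 0.24, 1.19 ± 0.22 and 1.16 ± 0.22 (SD, n = 4), and of these only that of Kwal_34.16304 passed the test (limma, adjusted p = 5.67e-05). Kwal_34.16307 passed it without array 1, at 1.25, and Kwal_34.16309 without array 4, at 1.24. With processed signals none of the 3 genes passed it, and Kwal_34.16304 stood at 0.66.

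The run in the middle of Kwal_27 had the widest spread of RNA signal between arrays of the 4 runs. Kwal_27.11204 read 2.40, 2.38, 2.37 and 2.42 in genomic signal on arrays 1 to 4. Its RNA signal was -2.66 on array 1 and -2.65 on array 3, against -0.52 on array 2 and -0.97 on array 4. Kwal_27.11206 read -2.71 and -2.99 on arrays 1 and 3 and -0.77 and -1.52 on arrays 2 and 4, and Kwal_27.11211 read -2.50 and -2.31 on arrays 1 and 3 and -0.53 and -0.64 on arrays 2 and 4. Their genomic signals did not follow this order, at 2.93, 2.91, 2.53 and 2.73 on arrays 1 to 4 for Kwal_27.11206 and 2.16, 2.32, 2.14 and 2.24 for Kwal_27.11211. In all 3 genes arrays 2 and 4 lay above arrays 1 and 3 by more than 1 on the log2 scale.

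Because of that spread, the place of the run below the median gene was uncertain. Kwal_27.11206 passed the test (limma, adjusted p = 0.0145), but not without array 1 or without array 3, at levels of -1.77 and -1.66. Kwal_27.11204 and Kwal_27.11211 did not pass (limma, adjusted p = 0.0838 and 0.179). Both passed without array 2, at -2.08 and -1.83, and with processed signals, at -1.98 and -1.78. Neither of them passed without array 1, 3 or 4. Kwal_47.16550, the first gene of its prefix, showed the same order of arrays, with RNA at -2.02 and -1.63 on arrays 1 and 3 and -0.30 and -0.73 on arrays 2 and 4, beside a genomic signal of 2.48 ± 0.08 (SD, n = 4). It was chosen after its values were seen.

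An RNA gap of this size was rare on the array. Arrays 2 and 4 both lay more than 1 above arrays 1 and 3 in 16 genes, of which 10 had both probes above 1 in genomic signal. Of these 10, 3 were members, and the others had a small prefix or a probe identical to one of another gene. The labels name no difference between the 4 samples. Over all members, the SD of RNA signal between arrays had a median of 0.19, against 0.13 in the other genes, and exceeded 0.5 in 8 members (8.42%), against 74 other genes (1.45%).

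**Figure D4:**
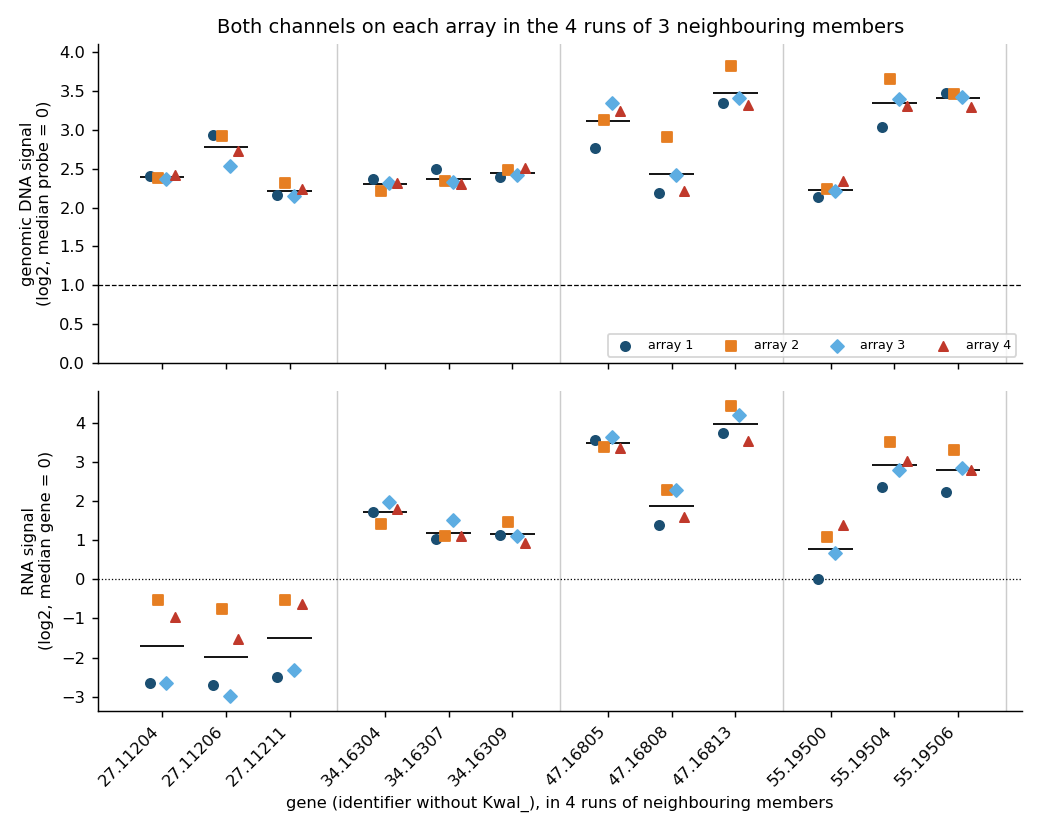
Genomic DNA signal (top, log2 relative to the median probe) and RNA signal (bottom, log2 relative to the median gene) on each of the 4 arrays for the 4 runs of 3 neighbouring members, with the mean as a bar. In the run from Kwal_27.11204 to Kwal_27.11211 the RNA of arrays 1 and 3 lies between -2.99 and -2.31 and that of arrays 2 and 4 between -1.52 and -0.52, while the genomic signals span 2.37 to 2.42 for Kwal_27.11204 and 2.53 to 2.93 for Kwal_27.11206.

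A further group of members belonged to a long stretch of modestly raised genes. On Kwal_56 the running median of 15 genes stayed above 0.5 over 65 genes, from Kwal_56.22613 to Kwal_56.22900. Their median genomic signal was 0.71, or 1.63-fold over the median probe, and it was 0.73, 0.72, 0.69 and 0.68 on the 4 arrays. The remaining 481 genes of the prefix had a median of -0.01. The stretch was picked by this signal, so that these values only describe it. Of the 65 genes, 62 (95.4%) lay above 0, against 49.7% of the rest of the prefix.

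The 6 members of that stretch were its upper edge, with genomic signals between 1.09 and 1.37. Only 1 of them had a near match, and 2 of all 65 genes did. The median RNA signal of the 65 genes was 0.46, against -0.04 in the rest of the prefix, and their median RNA over genomic DNA was -0.29, against -0.03. Their probes had a median GC content of 41.8%, against 42.7%. No other stretch found in this way on the large prefixes held more than 12 genes.

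**Figure D5:**
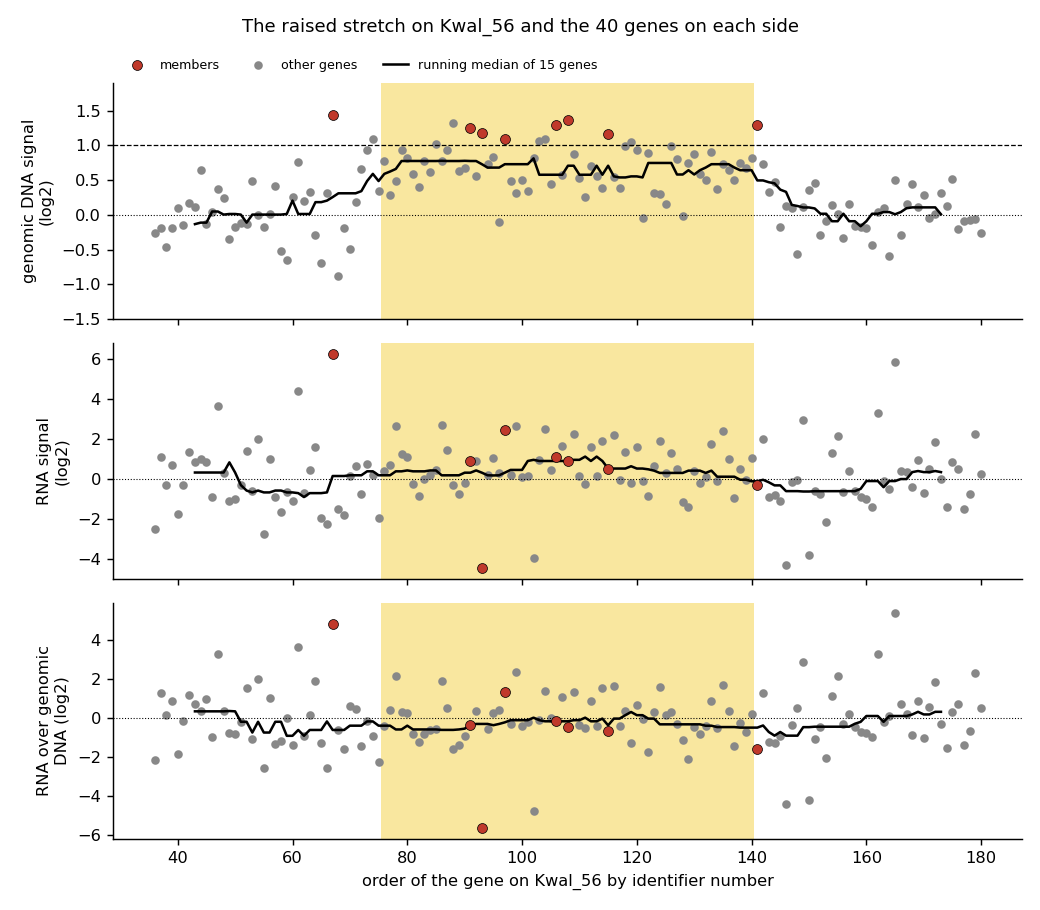
Genomic DNA signal (top), RNA signal (middle) and RNA over genomic DNA (bottom), all log2 and means of 4 arrays, for the raised stretch of Kwal_56 (shaded) and the 40 genes on each side in the order of their identifiers, with the running median of 15 genes. Genomic signals in the shaded stretch centre on 0.71 and the 6 members there lie above the dashed line at 1.

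The probes of members were somewhat richer in GC at the upper end. The median GC content was 43.6% in members and 42.7% in the other genes, and 14 members (14.7%) reached 50% or more, against 65 of the other genes (1.27%). The richest were Kwal_23.4703 and Kwal_56.23626, both at 54.5%, followed by Kwal_55.19504, Kwal_14.1204 and Kwal_14.1621, all at 53.6%. Kwal_23.4703 had a genomic signal of 1.21 ± 0.06 and an RNA signal of 3.62 ± 0.09 (SD, n = 4), 12.3-fold over the median gene (limma, adjusted p = 5.58e-10).

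The poorest in GC were Kwal_47.17671 and Kwal_55.22271 at 38.2%, followed by Kwal_47.17294, Kwal_14.764, Kwal_33.15087 and Kwal_33.15093, all at 39.1%. Genomic signals of Kwal_47.17671, Kwal_55.22271 and Kwal_47.17294 were 2.10, 2.48 and 1.89, above the median of members, 1.74. Kwal_55.22271 is the last gene of its prefix and lay 2.67-fold over the median gene in RNA (limma, adjusted p = 0.00654). Kwal_47.17671 lay 2.33-fold over it (limma, adjusted p = 0.0101), but did not pass without array 1, at a level of 1.19. With processed signals neither gene passed, at 0.38 for Kwal_55.22271 and 0.35 for Kwal_47.17671. Kwal_47.17294 had RNA at 0.12 ± 0.39 (SD, n = 4), which did not pass (limma, adjusted p = 1).

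RNA over genomic DNA is the ratio from which the study estimated expression levels. It contains the genomic signal that chose the members, so that its counts are a description from which nothing is read. The median was -0.48 in members and 0.01 in the other genes. By the same test 37 members lay above the median gene, where 23.1% of all genes did, and 30 lay below it, where 21.0% of all genes did. The median was -1.22 in members with a near match, 5.08 in those with RNA above 5 and no near match, and -0.66 in the rest, sets that are partly defined by RNA signal. Both counts depended on the normalization. With loess within each array, limma's test placed 0 members above the median gene, also at an unadjusted p of 0.05, where 5.05% of all genes lay, and 67 under it, where 8.99% did.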

How the data were processed

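The 4 arrays were read from the deposited scanner files, which hold for each spot the intensity in both channels as the authors extracted it. The software was Agilent Feature Extraction. Its header entry for grid placement gives version 10.1.1.1, while the methods of the study name a different version. The log10 ratio (Cy5 over Cy3) that the deposited files also hold, dye-normalized by that software, was used only as an alternative, with its sign turned. The series' table of gene values was not used, since its row numbers match no probe column.

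From each spot's median signal the median of its local background was taken off. Genomic signal was log2 of Cy5 minus the array median over gene probes, averaged over arrays. RNA signal was log2 of Cy3 without outlier spots, as the median over probes, quantile normalised and centred on the median gene. Printed array values and SDs are of centred arrays without quantile normalization. Genes were tested against a 2-fold difference with limma 3.58.1 (treat, two-sided, intercept alone) in R 4.3.3, with Benjamini-Hochberg adjustment at 0.05 over 5192 genes. On simulated arrays 191 of 200 changed genes were recovered and 0 others were called. Simulated levels kept a distance from the 2-fold bound, and noise was independent between arrays. The recovery thus does not cover genes near the bound or differences between pairs of arrays. Alternatives changed the signal used, the background correction, the normalization, the bound of the test, the threshold, the length of a match and the arrays used. Sequence matches, runs, ends of prefixes and GC content were counted in Python 3.11.15.

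Named genes are the extremes of genomic signal, RNA signal, shared stretch, GC content, SD and probe gap, the 4 longest runs, and the genes on each side of the threshold. Members and lists were chosen with earlier results of these data known. Planned gene lists were not used, since no table naming the genes was used here. Probe sequences are not printed.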

Additional observations from a re-analysis of the deposited data

Results flagged for a closer look

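Among the genomic and RNA signals of the named members, 72 sets of 4 arrays were examined for an array far from the others, and 2 stood out, where chance marks about 1 in 20. The genomic signal of Kwal_33.15428 stood at 1.79 on array 2, where the others read 1.56 to 1.59. The RNA signal of Kwal_55.22265 stood at -3.13 on array 2, where the others read -3.87 to -3.76. Both genes were above the threshold in genomic signal on every array.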

How the results depend on the processing

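The number of members depended on the signal and the rule. It was 151 at a threshold of 0.8, 47 at 1.5, 382 with the processed signal of the scanner software (89 of the 95 among them), 297 with normexp, 48 without shared stretches of 20 bases and 150 with no limit on the prefix. Leaving out single arrays gave 91 to 95. Requiring that the probes of a gene have no 5 bases in common left 2 members, and most pairs of probes share 5 bases by chance. With probes that do not overlap end to end, a setting chosen after seeing the data, 40 members were left. The median RNA signal was 0.67 with processed signals and 1.80 to 1.995 without single arrays. In RNA over genomic DNA, 7 members lay above the median gene with the scanner log ratio (10.4% of all genes did) and 0 with loess (5.05%). Below it lay 51 with normexp (22.7% of all genes), 61 with the scanner log ratio (13.5%), 67 with loess (8.99%), 52 in a test against 0 (46.7%) and 11 against 4-fold (8.26%). The median was -1.46, -2.50 and -2.96 with normexp, the scanner log ratio and loess. The cause of these shifts was not tested. In RNA alone 42 to 78 members lay above over the other settings (10.03% to 45.5% of all genes) and 7 to 12 below (7.76% to 45.4%). Among the 67 members kept with the RNA-related part removed, a count added after seeing the data, 32 lay above. In the same test 23.6% of all genes did. Of 432 recomputed values of named genes, 395 kept their direction and side of the threshold, 20 no longer passed, 14 newly passed and 3, none of which passed the test in either setting, changed sign. These were Kwal_47.17294, at -0.43 with processed signals and -0.058 without array 2 (-0.058 to 0.259 over single arrays left out), and Kwal_55.19500, at -0.0148 with processed signals. No paired analysis was possible because there was 1 group of arrays.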
